A study of Mus musculus with 6 samples.

Results

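The 10 genes described here encode the core machinery of mitochondrial fusion and fission: the fusion GTPases Mfn1, Mfn2 and Opa1, the inner membrane proteases Oma1 and Yme1l1 that cut OPA1, and the fission genes Dnm1l, Fis1, Mff, Mief1 and Mief2. They were chosen by symbol from a table of 14975 genes in mouse platelets, and all 10 were listed. Platelet RNA of 3 control and 3 pre-AML libraries was compared, called control 1 to 3 and pre-AML 1 to 3. All samples are labelled as peripheral blood platelets of C57BL/6 background, with the genotype WT or AML. According to the study's methods, pre-AML mice were irradiated recipients that carried hematopoietic cells transformed by a retroviral MLL-AF9 oncogene, and control mice received normal bone marrow instead, so both groups share transplantation. Recipients were adult female mice of C57BL/6 or CD45.1 type, and blood was drawn 1 week after transplantation. The series text speaks of 2 replicates per group and of 3 to 4 mice pooled for each sample, whereas the methods name 3 independent mice, and which of them holds is open. Nothing in the labels ties a library to separate animals, so the p-values below measure the spread between these libraries. The study imaged the shape of platelet mitochondria, and the levels of the genes that set mitochondrial shape in other cells were therefore compared between the groups.

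Mitochondria join and divide continuously. MFN1 and MFN2 tether and merge outer membranes, OPA1 merges inner membranes and keeps cristae tight, and cleavage of OPA1 by the stress-activated protease OMA1 or by YME1L1 sets how much of it is fusion-competent. In division, the cytosolic GTPase DRP1, the product of Dnm1l, is recruited to the outer membrane by the adaptors MFF, MIEF1 (MiD51) and MIEF2 (MiD49), with FIS1 as a further outer membrane protein, and then constricts it. Platelets have no nucleus, and the RNA in them is largely inherited from megakaryocytes.

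The levels are given in FPKM, the reads on a gene scaled to its length and to library size. Total reads recovered from these values were between 11935646 and 17778115 per library. The library pre-AML 3 stood apart from the other libraries: it had a mean Spearman correlation with them of 0.858 over genes, against 0.942 to 0.950 for the others, and the first principal component, with 70.2% of the variance, set it apart. The 8 platelet markers were present in every library. They summed to 89014, 90434.8 and 60030.5 FPKM in pre-AML 1, 2 and 3 and to between 87908.3 and 111928 FPKM in the controls. Most of the sum came from Pf4 and Ppbp in every library, and 4 of the 8 markers were lowest in pre-AML 3. Of the 7 monocyte and macrophage markers, all 7 were highest in pre-AML 3, with a summed level of 3397 FPKM against 2385 to 2615 FPKM in controls, most of it from Lyz2 in every library. Each of the other 6 had at most 0.533 FPKM in any control, the value of Tyrobp in control 2, and Tyrobp had 4.85, 4.37 and 153 FPKM in pre-AML 1, 2 and 3. All 5 B cell markers were also highest in pre-AML 3, with sums of 0.881, 19.3 and 226 FPKM in pre-AML 1, 2 and 3 against 1.38 to 1.86 FPKM in controls. The 6 T and NK cell markers summed to 19.1 to 28.6 FPKM in controls and 33.1 to 35.1 FPKM in pre-AML libraries, with Cd3g and Ncr1 at 0 in all controls. Most of the sum came from Nkg7, which overlapped between the groups (18.9 to 28.2 FPKM in controls and 22.6 to 27.9 FPKM in pre-AML libraries). Gzma had 0, 0.353 and 0 FPKM in control 1, 2 and 3, and 7.25, 4.61 and 8.90 FPKM in pre-AML 1, 2 and 3. The 6 neutrophil markers summed to 2.01 to 2.98 FPKM in controls and to 3.58, 0.866 and 0.661 FPKM in pre-AML 1, 2 and 3. Ly6g and Mpo were at 0 in all controls and at most 0.239 FPKM in any pre-AML library. Ly6g was also at 0 in pre-AML 2 and 3, and Mpo in pre-AML 3. The 5 listed erythroid markers were between 2350 and 2652 FPKM in controls and between 2377 and 2991 FPKM in pre-AML libraries. The part of these other cells, and of depth, in the results below was not tested. The fold changes of the genes described are also given without pre-AML 3 where they were tested and named.

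Among these platelets, the fission genes Fis1 and Mff were by far the most abundant members of the machinery. Together they made up between 91.4% and 92.4% of the summed FPKM of the 10 genes in each of the 6 libraries. The mean over all libraries was 117 FPKM for Fis1 and 92.9 FPKM for Mff, followed by 9.20 FPKM for Dnm1l, 5.65 FPKM for Mfn2 and 1.78 FPKM for Opa1. Mief1, Yme1l1, Oma1, Mief2 and Mfn1 had means of 0.806, 0.650, 0.308, 0.201 and 0.115 FPKM. Fis1 was above Mff, Mff above Dnm1l, Dnm1l above Mfn2, Mfn2 above Opa1 and Opa1 above Mief1 within 6 of 6 libraries. The largest step lay between Mff and Dnm1l, where the means differed 10.1-fold and the ranges of the libraries did not meet. The lower end of the order was less certain, since Mief1 exceeded Yme1l1 in 4 of 6 libraries and Mief2 exceeded Mfn1 in 4 of 6.

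**Figure D1:**
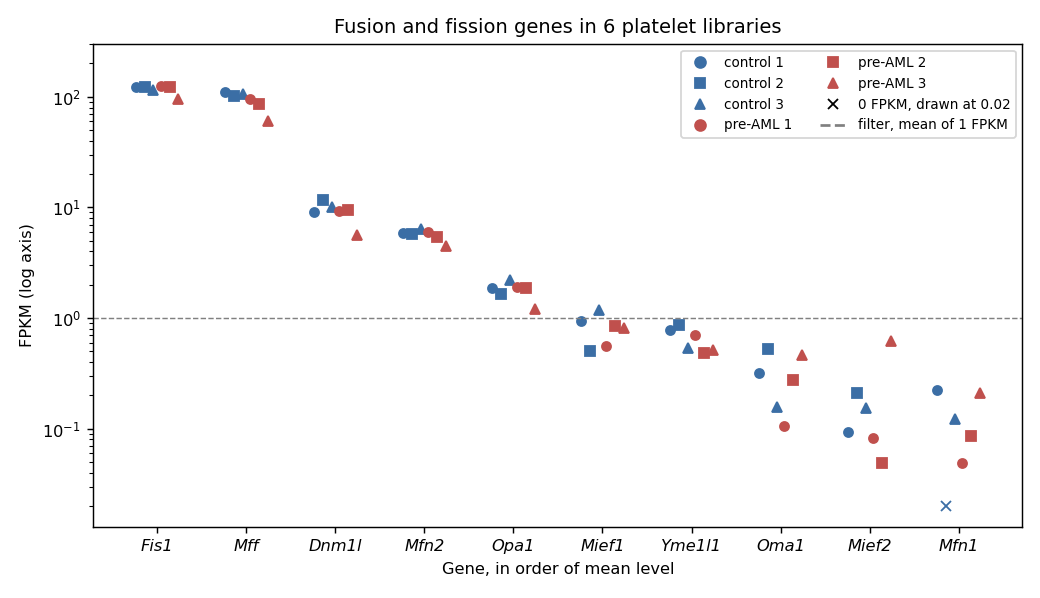
FPKM of the 10 fusion and fission genes (log axis), each point being 1 library, with control libraries in blue and pre-AML libraries in red. Fis1 and Mff lie near 100 FPKM, 5 genes have means below the dashed line at 1 FPKM, and the 0 FPKM of Mfn1 in control 2 is drawn as a cross at 0.02.

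The promoters of Fis1 and Mff, the pair with the highest levels, are shown beside that of Mfn1, the gene with the lowest, as the 100 bases before the start site in RefSeq (GRCm38.p6, plus strand for all 3), with matches to the ETS core CCGGAAG in capitals. They lie at chr5:136953175-136953274, chr1:82724790-82724889 and chr3:32529382-32529481. Fis1 and Mff have more than 1 start site in RefSeq, and the one furthest upstream is shown. The 100 bases before the other Fis1 start site, at chr5:136961977-136962076, hold no CCGGAAG, though its longer window holds CCGGAAG and GATAA.
Fis1: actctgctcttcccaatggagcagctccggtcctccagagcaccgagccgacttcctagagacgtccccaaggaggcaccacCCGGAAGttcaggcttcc
Mff: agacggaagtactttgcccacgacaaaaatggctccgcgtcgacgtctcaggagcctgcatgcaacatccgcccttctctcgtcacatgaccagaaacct
Mfn1: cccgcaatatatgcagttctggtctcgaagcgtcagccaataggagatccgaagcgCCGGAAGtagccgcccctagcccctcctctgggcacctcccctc
RefSeq gave 15 promoter windows for the 10 genes, each from 250 bases before to 50 bases after a start site. CCGGAAG stood on either strand in 6 of these 15 windows, belonging to Dnm1l, Fis1, Mfn1, Mief1 and Yme1l1, and in 8.86% of all 32851 windows. The shares are not of like windows, since CCGGAAG holds a CG pair and the 15 windows had a median of 21 CG pairs against 7 in all windows. Windows of the same gene also overlapped for Mff and Mfn2. GATAA was present in 2 of the 15, of Fis1 and Mief2, and in 25.4% of all windows. A match is a description of the letters only, and the most and the least abundant gene both had the ETS core.

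For the comparison of groups, genes that averaged 1 FPKM or more were tested with limma-trend on log2(FPKM + 1), a scale on which the change of genes with low FPKM is understated. Mfn2, Opa1, Dnm1l, Fis1 and Mff passed this filter, and the other 5 members did not. No member had an adjusted p under 0.05 (0 of 5 in limma-trend with Benjamini-Hochberg adjustment over 4412 genes), and 0 had an unadjusted p under 0.05. Over all tested genes, 1, granzyme A (Gzma), was past the threshold, which is 0.0227%, and 288 (6.53%) were lower and 113 (2.56%) higher at an unadjusted p under 0.05. With limma-voom on recovered reads, 0 of the 5 had an adjusted p under 0.05 and 1, Mff, an unadjusted p under 0.05, where 6.03% of all genes were lower at this level. The reads of Mff rest on a gene length that did not give whole reads. In limma-trend, the log2 fold changes of all 5 were below 0, with a median of -0.16. The median over all tested genes was -0.055, and 41.5% of them were above 0. In platelet RNA as in any bulk sample, fewer cells with a transcript and less of it per cell cannot be told apart.

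**Figure D2:**
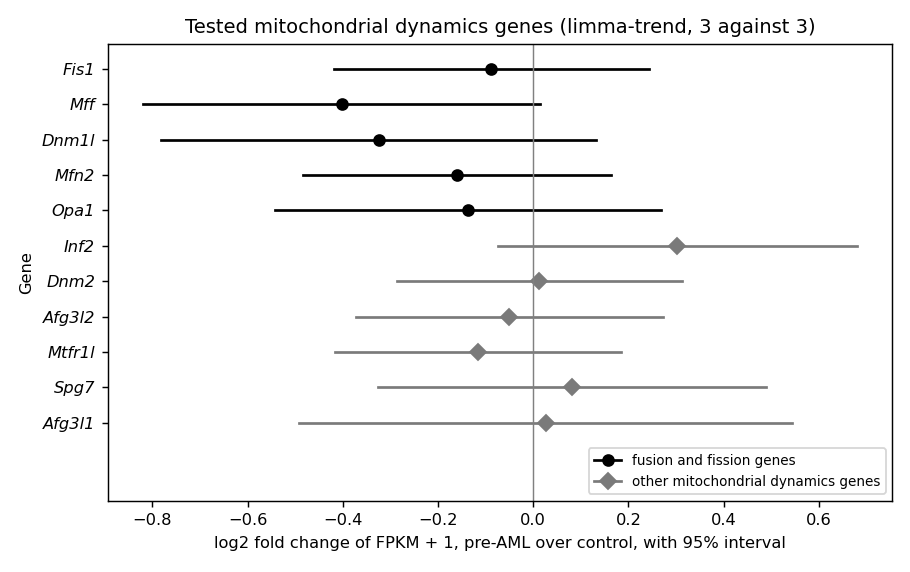
log2 fold change of FPKM + 1 between pre-AML and control libraries for the 5 tested fusion and fission genes (black) and the 6 other tested genes of mitochondrial dynamics (gray), with lines for the 95% interval from limma-trend (3 against 3 libraries). The intervals of all 11 genes include 0, and that of Mff reaches from -0.82 to 0.015.

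Mff, at positions 82724890 to 82752394 of chromosome 1 (GRCm38, plus strand), encodes the main outer membrane receptor of DRP1 in many cells. It had 109, 101 and 105 FPKM in control 1, 2 and 3, and 95.8, 85.9 and 60.4 FPKM in pre-AML 1, 2 and 3. All 3 pre-AML libraries were thus below all 3 controls, as was the case for 12.8% of all tested genes. The controls averaged 105 ± 4.35 FPKM and the pre-AML libraries 80.7 ± 18.3 FPKM (mean ± SD, n = 3 each). Its log2 fold change was -0.40 (SE 0.18, with a 95% interval of -0.82 to 0.015), at an unadjusted p of 0.0571 and a limma-trend adjusted p of 0.522, so the difference did not pass the threshold. Without pre-AML 3 the log2 fold change was -0.21 (limma-trend adjusted p = 0.618). The rank of Mff among all listed genes, which does not depend on how libraries are scaled, lay at percentiles 97.7, 97.5 and 97.6 in the controls and 97.4, 97.3 and 97.0 in the pre-AML libraries.

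Fis1, on chromosome 5 from 136953275 to 136966234 on the plus strand, encodes a small tail-anchored protein of the outer membrane that binds fission and fusion factors. Its level was 123, 122 and 116 FPKM in control 1, 2 and 3, and 124, 122 and 96.0 FPKM in pre-AML 1, 2 and 3. Pre-AML 1 was the highest and pre-AML 3 the lowest of all libraries, and the groups overlapped. The log2 fold change was -0.088 (SE 0.14, 95% interval -0.42 to 0.24, limma-trend adjusted p = 0.813). Its rank was between percentiles 97.7 and 97.9 in every library. The sign of Fis1 turned without pre-AML 3, to 0.031.

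Because a ratio of genes within a library does not depend on its scaling, Mff was set against Fis1, a pair chosen after its values were seen. Mff had 0.888, 0.822 and 0.906 times the FPKM of Fis1 in control 1, 2 and 3, and 0.771, 0.704 and 0.629 times in pre-AML 1, 2 and 3. The groups did not overlap, and the ratio averaged 0.872 ± 0.0439 over the controls and 0.701 ± 0.0710 over the pre-AML libraries (mean ± SD, n = 3 each). How often other pairs of genes separate in this way was not counted. The ratios planned in advance with a value in every library (fission to fusion, Oma1 to Yme1l1 and Mief2 to Mief1) overlapped. A trend of the libraries with GC content moved with the difference in Mff to Fis1. The Spearman correlation across genes between GC content and a gene's deviation from its mean, given for description, was -0.32, -0.41 and -0.33 in control 1, 2 and 3, and -0.041, 0.32 and 0.51 in pre-AML 1, 2 and 3, over 4397 genes. Transcripts of Mff have a GC content of 43.1% and those of Fis1 54.3%. When the trends with GC content and with gene length were taken out of every library, the difference of Mff and Fis1 on the log2 scale was -0.28, -0.43 and -0.44 in controls and -0.42, -0.45 and -0.086 in pre-AML libraries, so that the groups overlapped. The level of Mff also overlapped between the groups in this setting, and its log2 fold change was -0.16 (limma-trend adjusted p = 0.809). The GC trend was itself separate between the groups, so its removal also takes out any group difference that follows GC content. Trend and group cannot be told apart here. The length used for Mff did not give whole reads.

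**Figure D3:**
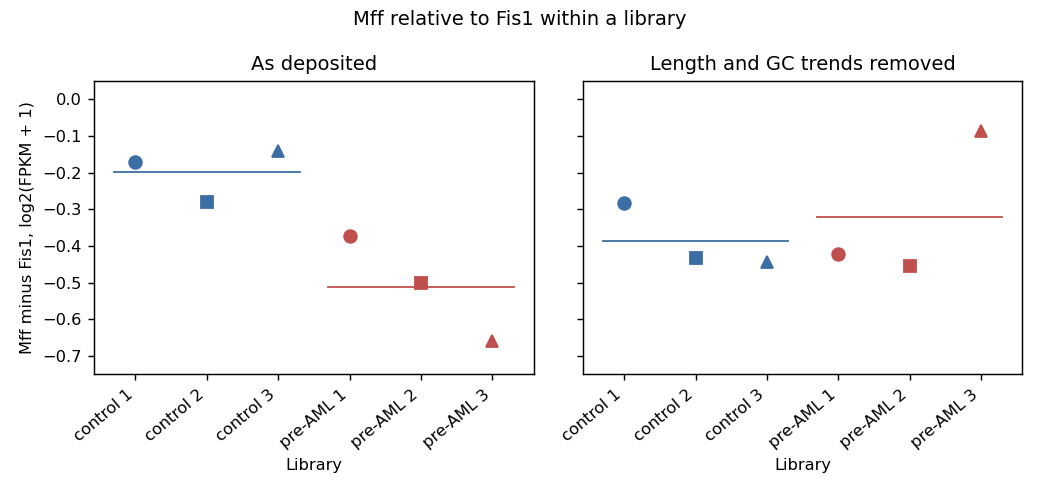
Difference between Mff and Fis1 on the log2(FPKM + 1) scale in each library, as deposited (left) and after the length and GC trends of the libraries had been taken out (right), with lines at the group means. The groups are separate on the left, with pre-AML libraries between -0.66 and -0.37, and overlap on the right.

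Dnm1l encodes DRP1, the GTPase that constricts mitochondria, and lies on chromosome 16 from 16312230 to 16358959 on the minus strand. It had 9.05, 11.6 and 10.2 FPKM in control 1, 2 and 3, and 9.38, 9.40 and 5.66 FPKM in pre-AML 1, 2 and 3. Pre-AML 1 and 2 were within the range of the controls and pre-AML 3 was below it. The log2 fold change was -0.32 (SE 0.20, 95% interval -0.78 to 0.13, limma-trend adjusted p = 0.552). Without pre-AML 3 it was -0.11, and with the trends with length and GC content removed it was -0.012, at a GC content of 40.6% of its transcripts. Relative to Mff, Dnm1l stood at 0.0828, 0.115 and 0.0969 in controls and at 0.0979, 0.109 and 0.0937 in pre-AML libraries, within the same range.

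Mief1 and Mief2, which encode the alternative DRP1 receptors MiD51 and MiD49, were present at low levels. Mief1 had 0.935, 0.4997 and 1.18 FPKM in control 1, 2 and 3, and 0.556, 0.842 and 0.820 FPKM in pre-AML 1, 2 and 3, and the control range held all pre-AML libraries. Mief2 had 0.0941, 0.209 and 0.155 FPKM in control 1, 2 and 3, and 0.0830, 0.0488 and 0.615 FPKM in pre-AML 1, 2 and 3. These correspond to 3, 8 and 5 recovered reads in the controls, 3 and 2 in pre-AML 1 and 2, and 39 in pre-AML 3. Mief2 was therefore at or near the level of 3 reads in 3 libraries and highest in pre-AML 3. In FPKM, pre-AML 1 and 2 were below all controls, though control 1 and pre-AML 1 had the same 3 reads. Pre-AML 3 also had the highest B cell and monocyte marker sums, and a link of these to Mief2 was not tested. Of the genes with a mean under 1 FPKM, 43.2% were highest in pre-AML 3.

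The fusion genes were lower than Fis1 and Mff, and each overlapped between the groups. Mfn2, on chromosome 4 from 147873599 to 147904704 on the minus strand, also tethers mitochondria to the endoplasmic reticulum and was the most abundant of the fusion GTPases. It had 5.90, 5.73 and 6.37 FPKM in control 1, 2 and 3, and 6.02, 5.39 and 4.48 FPKM in pre-AML 1, 2 and 3. Its log2 fold change was -0.16 (SE 0.14, 95% interval -0.48 to 0.16, limma-trend adjusted p = 0.642), and it was -0.064 without pre-AML 3. Its relative Mfn1 was at the edge of detection, with 16, 0 and 9 recovered reads in control 1, 2 and 3 and 4, 8 and 30 in pre-AML 1, 2 and 3. In FPKM, Mfn1 was at 0.223, 0 and 0.124 in the controls and at 0.0492, 0.0867 and 0.210 in the pre-AML libraries. A count of 0 in control 2 allows up to 0.0349 FPKM, the value of 3 reads, and this limit covers counting error only. Where Mfn1 had reads, Mfn2 exceeded it between 21.3 and 122 times.

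Opa1, on chromosome 16 from 29579334 to 29654884 on the plus strand, encodes the GTPase of the inner membrane that governs both inner membrane fusion and the width of cristae junctions. Its level was 1.86, 1.66 and 2.19 FPKM in control 1, 2 and 3, and 1.90, 1.85 and 1.21 FPKM in pre-AML 1, 2 and 3. Pre-AML 1 and 2 were within the control range and pre-AML 3 was the lowest. The log2 fold change was -0.14 (SE 0.18, 95% interval -0.54 to 0.27, limma-trend adjusted p = 0.758), and it was -0.0097 without pre-AML 3. Behind these values stood between 172 and 222 recovered reads per library. The sign of Opa1 turned to 0.046 with the trends with length and GC content removed.

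The lowest value of each of the 5 tested members was in pre-AML 3, and this library was the lowest for 43.8% of all tested genes. Its deviation from the control mean was -0.79 for Mff, -0.75 for Dnm1l, -0.39 for Opa1, -0.35 for Mfn2 and -0.32 for Fis1 on the log2 scale, against a median of -0.16 over all tested genes. The summed FPKM of the library was 0.753 times the mean of the libraries. In pre-AML 1 the deviations were -0.13 for Mff, -0.11 for Dnm1l, 0.0022 for Opa1, 0.0043 for Mfn2 and 0.044 for Fis1. In pre-AML 2 they were -0.29 for Mff, -0.13 for Mfn2, -0.11 for Dnm1l, -0.022 for Opa1 and 0.018 for Fis1.

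The levels of the OPA1 proteases overlapped between the groups. Oma1, whose product is activated when the inner membrane loses its potential, had 0.318, 0.530 and 0.157 FPKM in control 1, 2 and 3, and 0.105, 0.278 and 0.460 FPKM in pre-AML 1, 2 and 3. It rested on between 3 and 23 recovered reads per library. Yme1l1, which encodes the ATP-dependent protease that cuts OPA1 under steady conditions, had 0.787, 0.870 and 0.535 FPKM in control 1, 2 and 3, and 0.704, 0.488 and 0.514 FPKM in pre-AML 1, 2 and 3, and rested on between 51 and 98 reads. Oma1 was below Yme1l1 in every library, at 0.404, 0.610 and 0.293 times its FPKM in controls and at 0.149, 0.570 and 0.895 times in pre-AML libraries, and the groups overlapped. With no filter on low values, the log2 fold changes of the 5 members with low levels were between -0.14 for Yme1l1 and 0.088 for Mief2, at limma-trend adjusted p of 0.752 and 0.857 over 14975 genes.

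The balance of the machinery was also compared as the summed FPKM of the 5 fission genes over that of the 3 fusion GTPases, as a description without a test. It was 30.4, 31.8 and 26.8 in control 1, 2 and 3, and 28.9, 29.8 and 27.7 in pre-AML 1, 2 and 3. All 3 pre-AML libraries, pre-AML 3 included, lay within the range of the controls, with means of 29.7 ± 2.62 and 28.8 ± 1.04 (SD, n = 3 each). Since Fis1 and Mff make up most of the sum, this ratio mainly sets that pair against Mfn2. The fission sum alone did not overlap, with 243, 235 and 232 FPKM in control 1, 2 and 3 and 230, 218 and 164 FPKM in pre-AML 1, 2 and 3. Among single tested genes, 12.8% were lower in all 3 pre-AML libraries. The fusion sum overlapped, with 7.99, 7.39 and 8.69 FPKM in controls and 7.97, 7.32 and 5.90 FPKM in pre-AML libraries.

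A further 24 genes that act on mitochondrial fusion or fission or are linked to it were listed from their roles. Of these, 11 were placed on the fusion side and 13 on the fission side, and all 24 were in the table. Of the 24, 6 passed the filter, 0 of 6 had an adjusted p or an unadjusted p under 0.05 from limma-trend, and 4 of 6 had a log2 fold change above 0, with a median of 0.019. With limma-voom on recovered reads, 1 of the 6, Inf2, had an unadjusted p under 0.05, where 5.28% of all genes were higher at this level. Inf2, which encodes a formin that assembles actin at sites of division, was the most abundant, with 26.4, 30.2 and 38.0 FPKM in control 1, 2 and 3 and 35.9, 42.7 and 37.8 FPKM in pre-AML 1, 2 and 3. Its groups overlapped, and its log2 fold change was 0.30 (SE 0.16, limma-trend adjusted p = 0.526). It was 0.11 with the trends with length and GC content removed and 0.47 with libraries scaled to the sum of FPKM. Without pre-AML 3 the log2 fold change was 0.32 for Inf2, 0.039 for Dnm2, 0.013 for Afg3l2 and -0.067 for Mtfr1l. Dnm2, which encodes dynamin 2, averaged 14.9 ± 0.230 FPKM over the controls and 15.1 ± 1.56 FPKM over the pre-AML libraries (SD, n = 3 each). Afg3l2, which encodes a subunit of the matrix-facing m-AAA protease, had 8.98 ± 0.982 and 8.63 ± 0.821 FPKM (SD, n = 3 each), and Mtfr1l, of the mitochondrial fission regulator family, 7.90 ± 0.636 and 7.22 ± 0.555 FPKM (SD, n = 3 each). The remaining 18 had means between 0.00434 and 0.765 FPKM, and 8 of them were highest in pre-AML 3. Of the 18, 1 did not overlap between the groups. This was Dele1, which encodes the protein that OMA1 cuts to signal mitochondrial stress to the cytosol, and it was named after its values were seen. Dele1 was placed on the fusion side of the list through this link to OMA1. It had 0.0346, 0.0481 and 0.0114 FPKM in control 1, 2 and 3, and 0.163, 0.0898 and 0.331 FPKM in pre-AML 1, 2 and 3, from 3, 5 and 1 reads and from 16, 10 and 57 reads. No overlap with higher pre-AML values was found for 8.11% of the genes with a mean under 1 FPKM, and with no filter the log2 fold change of Dele1 was 0.21 (SE 0.080, unadjusted p = 0.0343 and limma-trend adjusted p = 0.705).

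**Figure D4:**
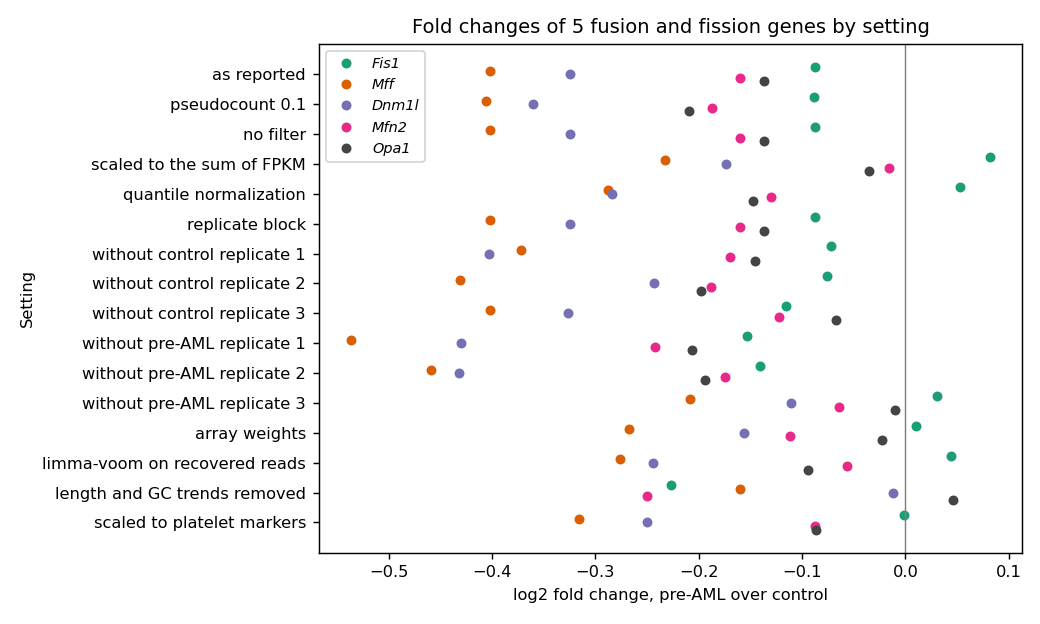
log2 fold change between pre-AML and control libraries for Fis1, Mff, Dnm1l, Mfn2 and Opa1 under the reported setting and 15 alternatives. Mff stays below 0 in all of them, between -0.54 and -0.16, whereas Fis1 lies on either side of 0.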

How the data were processed

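Platelet RNA was converted to cDNA and amplified with the SMART-Seq2 protocol after depletion of CD45 and Ter119 positive cells. The authors used STAR with mm10 for alignment and name DESeq2 for differential expression. They deposited FPKM values, with the counting program and annotation not given in the sources used here. Control and pre-AML are the names of the study for the samples labelled WT and AML.

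Exon lengths and positions were taken from GENCODE M21 (GRCm38), which held 14910 of 14975 genes. FPKM values times length were whole reads within 0.02 for 84.9% to 87.6% of low values (below about 8 reads). Reads were recovered on this basis. They were whole for 9 of the 10 genes described and not for Mff. The length behind its FPKM is thus not known here, and neither is the size of the error in its reads. Its limma-voom result and its values with the length trend removed rest on this length. The library size behind the FPKM, divided by the recovered reads, was 1.31 in pre-AML 3 and 0.983 to 1.01 elsewhere. The scaling method behind this was not tested.

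Groups were compared with limma-trend (limma 3.58.1, R 4.3.3) on log2(FPKM + 1) for genes averaging 1 FPKM or more, with Benjamini-Hochberg adjustment over 4412 genes, a threshold of 0.05 and no covariate. Figures were drawn with matplotlib 3.10.9, and other values were computed with pandas 2.3.3 (Python 3.11.15). The code was tested on simulated data. Members, lists and tests were chosen with earlier results of these data known. Named were all members, the 4 most abundant of the further genes and those with an unadjusted p under 0.05, and the leading 2 of each marker list, of which only some are printed. Markers at 0 in all controls and Dele1 were named after their values were seen. Alternatives were other scalings, filters, pseudocounts and weights, a replicate block, limma-voom, the removal of length and GC trends, and leaving out each library. Scaling to 7 platelet markers was chosen after seeing the data.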

Additional observations from a re-analysis of the deposited data

How the results depend on the processing

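None of the 5 tested members, and none of the further genes of mitochondrial dynamics, had an adjusted p under 0.05 in any of the 15 alternatives (0 in each). Mff kept its sign in all 15, with log2 fold changes from -0.54 to -0.16 and adjusted p from 0.252 to 0.809, and its unadjusted p was under 0.05 in 6. Dnm1l (-0.43 to -0.012) and Mfn2 (-0.25 to -0.016) kept their sign as well. Fis1 turned to 0.082 with libraries scaled to the sum of FPKM, 0.053 with quantile normalization, 0.010 with array weights, whose estimation did not converge, and 0.044 with limma-voom, and lay between -0.15 and 0.031 when each library was left out. Opa1 turned to 0.046 with the length and GC trends removed, where the log2 ratio of Mff to Fis1 turned from -0.32 to 0.066. That ratio was between -0.39 and -0.24 when each library was left out. Scaling to the sum of FPKM moved the median of all genes from -0.055 to 0.081 and limma-voom moved it to 0.072, so Fis1 was near the median in the first and below it in the second. Dnm2 turned to -0.13 with the trends removed and was between -0.065 and 0.065 with libraries left out. Afg3l2 turned to 0.10 with the sum of FPKM, 0.059 with array weights, 0.083 with limma-voom, 0.023 with the trends removed and 0.029 with platelet markers, and was between -0.13 and 0.013 with libraries left out. Inf2 stayed above 0 in all 15, from 0.11 to 0.47 (adjusted p from 0.212 to 0.892), with an unadjusted p under 0.05 in 6. Between 100 and 303 of the 4412 or 4431 genes tested were higher at this level in the 6 settings that held Inf2. Mtfr1l turned to 0.037 with the sum of FPKM and 0.011 with limma-voom. The cause was not tested. Of all genes, Gzma alone was past the threshold as reported (1). The count was 0 with no filter, the sum of FPKM, limma-voom and platelet markers, where 870, 469, 499 and 445 genes had an unadjusted p under 0.05, and 2 with array weights (Gzma and Rgcc). With each library left out it was 0 to 2, namely 0 without control 1, control 3 or pre-AML 1 (204, 293 and 656 at an unadjusted p under 0.05) and 2 without pre-AML 3 (Gzma and Tyrobp).

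Deviations from the group mean correlated at -0.043, -0.12 and -0.17 between same-numbered libraries, and no library correlated best with its own number. These values could not decide on pairing, because pre-AML 3 stood apart and weighed on its group mean. Every control correlated with pre-AML 1 and 2 in the sign opposite to pre-AML 3, as with 0.14, 0.17 and -0.17 for control 3. Whether the number pairs libraries was thus not settled, and the reported fit used no block. With the number as a replicate block, 1 gene in all, 0 members and 0 further genes were past the threshold. Mff was then at -0.40 (limma-trend adjusted p = 0.594). Among the members below 1 FPKM, few reads limit what can be seen for Mfn1 (0 to 30 per library), Oma1 (3 to 23) and Mief2 (2 to 39). Mief1 and Yme1l1 had more, with 57 to 155 and 51 to 98 reads per library.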
